A study of Danio rerio with 24 samples.

Results

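Neural plate and eye field factors are the transcription factors that lay out the brain and the eye in the early embryo. They were taken here as 10 named zebrafish genes, *rx3*, *sox2*, *sox3*, *otx2b*, *six3b*, *pax2a*, *pax6a*, *egr2b*, *gbx1* and *zic1*, and the names matched 13 of the 35117 gene identifiers counted. The table of gene names writes many zebrafish genes in capitals and without the letter of the copy, so *otx2b* was found as *OTX2* and *egr2b* as *EGR2*, each with 1 identifier. *SIX3*, *PAX2* and *PAX6* each name 2 identifiers, and the table does not say which is the a and which the b copy. They are told apart here by the last digits of the Ensembl identifier: *SIX3* entries 54879 and 58008, *PAX2* entries 28148 and 32578, and *PAX6* entries 45936 and 103379. Of the 13 identifiers, 12 had enough counts to be tested at 96 hours post-fertilisation (hpf) and 11 at 10 hpf. In these fits *PAX2* entry 32578 was not tested at either stage, and *EGR2* was not tested at 10 hpf.

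The libraries were made from RNA of whole zebrafish of the line Tg(fli1:egfp), in which *fli1*, an endothelial gene, drives a green fluorescent protein, in all 6 groups. Animals were kept through development in tetrahydrocannabinol (THC), in cannabidiol (CBD) or in the solvent dimethyl sulfoxide (DMSO), and were taken as larvae at 96 hpf or as embryos at 10 hpf. Each of the 6 groups (THC, CBD and DMSO at 96 hpf; THC, CBD and DMSO at 10 hpf) held 4 libraries, which the submitters call biological replicates. The labels used here state neither the doses nor the animals and clutches behind a library, so a p-value measures the spread between these libraries. The question is how development proceeds under either cannabinoid. The compounds are isomers: a ring that an oxygen atom closes in THC is open in CBD, which has a free hydroxyl group in its place.

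The neural plate forms from the dorsal ectoderm during gastrulation. *SOX2* and *SOX3* belong to the SoxB1 factors, which keep its cells in a neural progenitor state, and *ZIC1* is a zinc finger factor of its border and dorsal side. *OTX2* marks the future forebrain and midbrain, and *GBX1* the territory behind it; the midbrain-hindbrain boundary forms where they meet and is marked by *PAX2*. *rx3*, *SIX3* and *PAX6* mark the eye field, a single patch in the anterior plate that later divides into both eyes, and *EGR2* (Krox20) marks alternating segments of the hindbrain. In the larva most of these genes are used again, among other places in the retina and in brain progenitors.

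Depth was 14879976 to 29641377 counts in 23 libraries and 125926 counts in DMSO library 4 of 10 hpf. Levels are given as counts per 1000000 counts (CPM) on 1 scale for all 24 libraries. Each library's total over the tested genes was first multiplied by its TMM scaling factor. A detection floor of 3 counts came to 0.0956 to 0.349 CPM in the 23 libraries and to 22.2 CPM in DMSO library 4. Genes that turn on or off in the early embryo differed in level between 10 hpf libraries of the same group, all of them labelled 10 hpf. *nanog*, a gene of the early embryo, stood at 10.2 to 12 CPM in THC library 4, CBD libraries 1 and 2 and DMSO library 1, at 7.42 CPM (1 count) in DMSO library 4, and at 76.7 to 219 CPM in the other 7. *MYOG*, a muscle differentiation gene, had 173 counts in CBD library 1, 71 in DMSO library 1, 1 in THC library 3 and 0 in the others, and *smyhc1*, a slow muscle myosin, reached 161 CPM in CBD library 1 and 71.8 CPM in DMSO library 1, against at most 1.95 CPM in the other deep 10 hpf libraries. *tbxta*, which marks the notochord and tail mesoderm, lay between 109 and 290 CPM in the 11 deep libraries. The summed levels of skeletal muscle, mature retina and lens, and mature neuron genes were highest in DMSO library 4, at 771, 66.7 and 37.1 CPM. In the other 10 hpf libraries they were at most 522, 12.8 and 16.5 CPM. In DMSO library 4, where 3 counts are 22.2 CPM, the sums of 66.7 and 37.1 CPM rest on few counts. CBD library 3 of 10 hpf held fewer genes with a count (20212) than the others of its group. Its TMM scaling factor, which raises its levels when below 1, was 0.5625, against 0.8745 to 1.048 in the others of its group. Its summed level of maternal and early stage genes was 2180 CPM, against 368 to 1240 CPM in those libraries. The part of these differences in the results below was not tested; all values are therefore given per library.

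At 10 hpf the eye field genes differed widely between libraries of 1 group. In RNA of whole animals, fewer cells of a type and less RNA per cell cannot be told apart. *rx3*, which starts eye formation in fish, stood at 33.7, 16.4, 27.0 and 83.6 CPM in THC libraries 1 to 4, at 39.3, 85.6, 27.2 and 22.5 CPM in CBD libraries 1 to 4, and at 52.8, 11.8 and 16.2 CPM in DMSO libraries 1 to 3, with 1 count (7.42 CPM) in DMSO library 4. Its highest libraries were CBD 2 and THC 4, and the 3 groups overlapped. *SIX3* entry 54879, a repressor that protects the anterior plate from posterior signals, followed the same order at the top, with 54.8, 24.6, 26.3 and 110 CPM in THC, 56.4, 111, 13.9 and 25.9 CPM in CBD, and 68.5, 13.8, 23.3 and 44.5 CPM (6 counts) in DMSO libraries. *SIX3* entry 58008 was highest elsewhere, at 11.9 CPM in CBD library 1 and 7.40 CPM in DMSO library 1, against 1.83 to 4.00 CPM in the other 9 deep libraries.

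**Figure D1:**
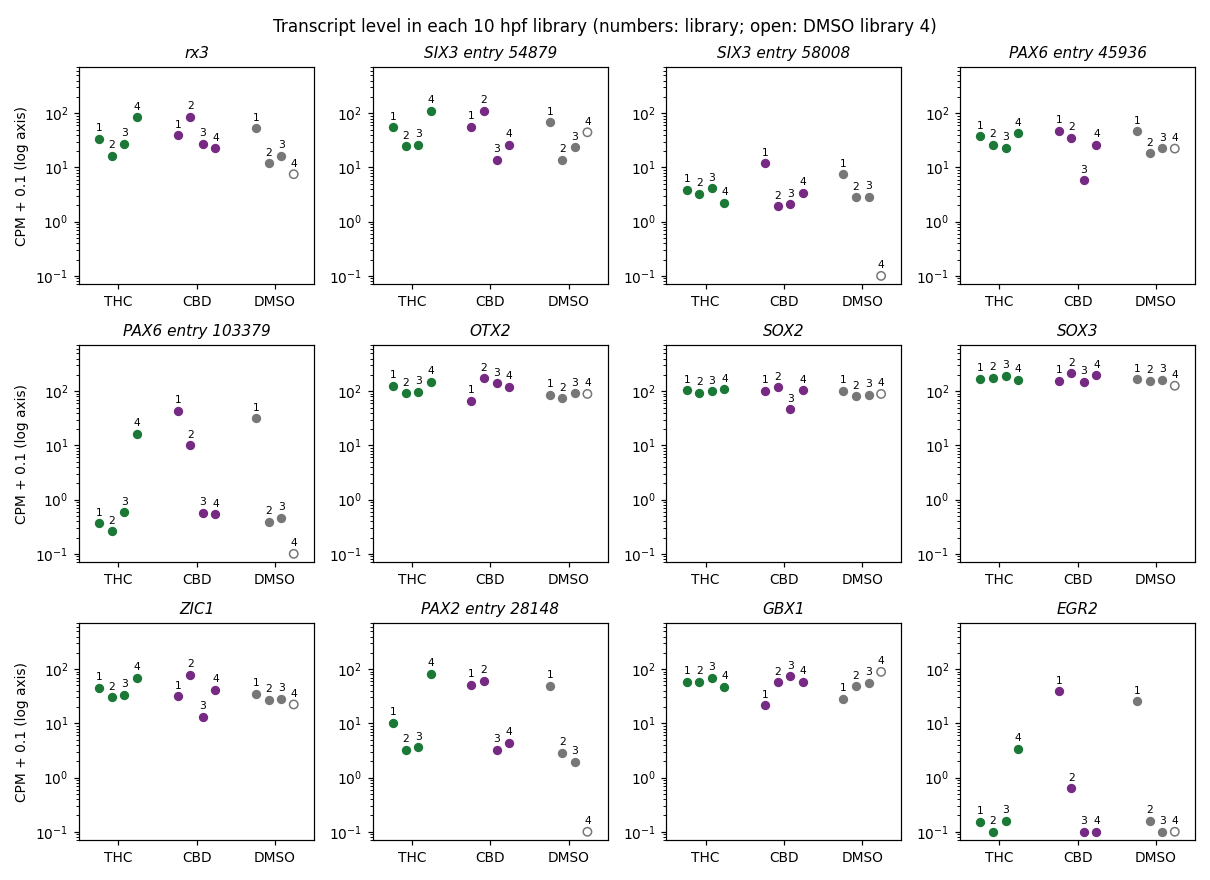
Level of 12 of the 13 identifiers in each 10 hpf library, as CPM + 0.1 on a log axis, for THC, CBD and DMSO from left to right. Each point is a library with its number, and the open point is DMSO library 4, where 3 counts equal 22.2 CPM. *PAX6* entry 103379, *EGR2* and *PAX2* entry 28148 span more than a factor of 10 within groups, and *SOX3* stays between 126 and 214 CPM.

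The 2 *PAX6* identifiers, copies of the eye master regulator, differed in their pattern. *PAX6* entry 45936 was present in all 12 libraries, at 37.4, 25.8, 23 and 42.7 CPM with THC, 47.1, 35.0, 5.69 and 26.3 CPM with CBD, and 46.3, 18.2, 22.6 and 22.2 CPM (3 counts) with DMSO. *PAX6* entry 103379 was near the floor in most libraries and high in 4. It stood at 0.264, 0.162, 0.485 and 16.2 CPM with THC, 43.3, 9.92, 0.465 and 0.438 CPM with CBD, and 31.5, 0.289, 0.358 and 0 CPM with DMSO. The 4 high libraries were CBD 1 and 2, DMSO 1 and THC 4, the same 4 deep libraries in which *nanog* was lowest. Across the 11 deep libraries the highest level was 267 times the lowest.

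*OTX2* and the SoxB1 genes varied less. *SOX3* was the steadiest of the 13, at 167, 175, 190 and 162 CPM with THC, 154, 214, 149 and 197 CPM with CBD, and 166, 157, 162 and 126 CPM (17 counts) with DMSO; over the 11 deep libraries its highest level was 1.44 times its lowest. *SOX2* lay at 104, 93.4, 99.6 and 108 CPM with THC, 101, 117, 46.5 and 104 CPM with CBD, and 101, 80.3, 85.7 and 89.0 CPM (12 counts) with DMSO, so that CBD library 3 alone was below 80.3 CPM. *OTX2* stood at 126, 91.2, 98.2 and 149 CPM with THC, 65.8, 173, 139 and 122 CPM with CBD, and 85.4, 74.2, 91.8 and 89.0 CPM (12 counts) with DMSO. The 3 groups overlapped for *OTX2*, and CBD library 1 was the lowest of all 12. *ZIC1* was highest in CBD library 2 (78.1 CPM) and THC library 4 (68.4 CPM), lowest in CBD library 3 (13.0 CPM), and at 22.2 to 45.4 CPM in the other 9.

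Of the boundary and hindbrain genes, *PAX2* and *EGR2* were high in a few libraries and near the floor or low in the rest. *PAX2* entry 28148, at 81.1 CPM in THC library 4, 51.6 and 60.3 CPM in CBD libraries 1 and 2 and 48.7 CPM in DMSO library 1, was at 1.85 to 10.1 CPM in the other 7 deep libraries, and DMSO library 4 had 0 counts. *PAX2* entry 32578 had 35 counts in CBD library 1, 36 in DMSO library 1, 1 in THC library 3 and 0 elsewhere. *EGR2* had 838 counts (38.8 CPM) in CBD library 1, 507 counts (25.4 CPM) in DMSO library 1, 72 counts (3.26 CPM) in THC library 4, 9 counts in CBD library 2 and 0 or 1 in the other 8 libraries. *PAX2* entry 32578 and *EGR2* were thus strongest in CBD library 1 and DMSO library 1, which also held the most *MYOG*. *GBX1* ran the other way: at 21.3 CPM in CBD library 1 and 28.2 CPM in DMSO library 1 it was lowest, against 47.4 to 73.5 CPM in the other 9 deep libraries and 89.0 CPM (12 counts) in DMSO library 4.

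**Figure D2:**
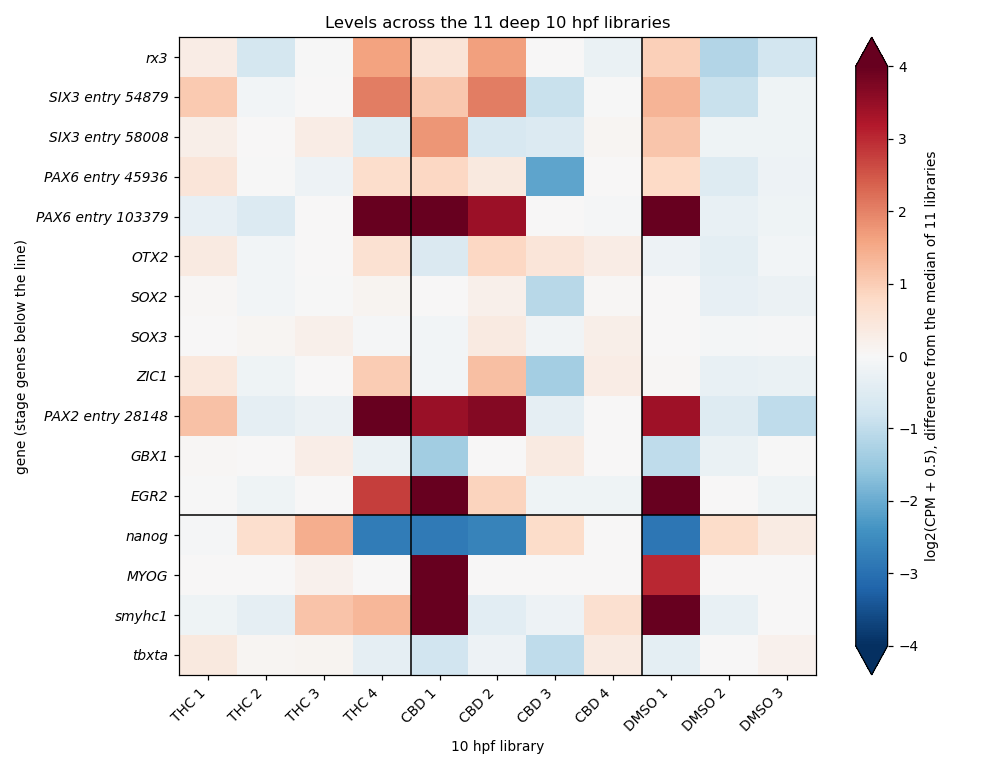
Level of each identifier (rows; 4 stage genes below the line) in the 11 deep 10 hpf libraries (columns; THC, CBD and DMSO from left to right), as log2(CPM + 0.5) minus the row's median over the 11 libraries, with colours saturated at 4 log2 units. The darkest red cells of *PAX2* entry 28148 and *PAX6* entry 103379 fall in THC library 4, CBD libraries 1 and 2 and DMSO library 1, where *nanog* is blue; *rx3* and *SIX3* entry 54879 are above their medians in these 4 libraries and in THC library 1; *MYOG* and *smyhc1* are red in CBD library 1 and DMSO library 1.

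Some pairs of members followed each other across the 11 deep libraries, as a description over libraries that differ in the stage genes above. How often pairs of all genes do so was not computed, so the counts below do not set the members apart from other genes. On log2 CPM, Pearson's r lay above 0.5 in 21 of 55 pairs, below -0.5 in 5 and in between in 29. It was 0.91 between *rx3* and *SIX3* entry 54879, 0.91 between *rx3* and *PAX2* entry 28148, 0.93 between *SOX2* and *PAX6* entry 45936, and -0.83 between *SIX3* entry 58008 and *GBX1*. CBD library 3 was the lowest of the 11 for both *SOX2* and *PAX6* entry 45936. Among 15937 other genes, the 3 whose levels followed *rx3* most closely were *fam234b* (r = 0.971), *DMBX1* (0.965), a homeobox gene of the anterior brain, and *cratb* (0.962). The 3 closest to *OTX2* were *MTA1* (0.977), *DLX3* (0.969) and *tle2a* (0.969), and the 3 closest to *PAX2* entry 28148 were *HOXC6* (0.989), *PGAM5* (0.988) and *SP9* (0.984). The 2 closest to *PAX6* entry 103379 were *PMP22* (0.99) and *AQP11* (0.99), and the 3 closest to *GBX1* were *si:dkeyp-44b5.5* (0.973), *ubtfl* (0.969) and *RIMKLA* (0.966).

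In none of the treatment comparisons at 10 hpf did a member pass the test, and neither did any other gene. With edgeR's quasi-likelihood test and Benjamini-Hochberg adjustment over 17595 genes, 0 of 11 members passed in THC against DMSO, where 0% of all genes did, and 0 of 11 had an unadjusted p under 0.05, where 0.278% of all genes (49) did. In CBD against DMSO 0 of 11 members passed, where 0% of all genes did, and 0 of 11 had an unadjusted p under 0.05, where 5.41% of all genes (952) did. DESeq2's Wald test called 0 members and 0 genes in both.

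The direction of the differences at 10 hpf was nonetheless mostly upward. The genes were grouped with small rises at 10 hpf and small falls at 96 hpf already known from these libraries. The counts of directions, of unadjusted p-values and of groups that do not overlap, at either stage, therefore describe them and are not independent evidence. In CBD against DMSO, 11 of 11 members had a log2 fold change above 0, where 55% of all genes did, and their median was 0.46, against 0.06 over all genes. *OTX2* had a mean of 125 ± 44.9 CPM with CBD, against 85.1 ± 7.74 CPM with DMSO (SD, n = 4 each), a log2 fold change of 0.56 with a standard error (SE) of 0.275 and a 95% interval of -0.04 to 1.15, and its adjusted p of 0.805 (edgeR) was the smallest of the 11. *rx3* had a mean of 43.6 ± 28.9 CPM with CBD, against 22.1 ± 20.8 CPM with DMSO, with a log2 fold change of 0.80 (interval -0.56 to 2.15). That DMSO mean includes library 4, where *rx3* had 1 count, and without it the mean was 26.9 ± 22.5 CPM (n = 3). For *SOX2* (0.04, interval -0.49 to 0.57), *GBX1* (0.06, -0.76 to 0.88) and *PAX6* entry 45936 (0.01, -1.09 to 1.11) the value was close to 0.

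In THC against DMSO at 10 hpf, 9 of 11 members had a log2 fold change above 0, where 52.7% of all genes did, with a median of 0.19 against 0.02 over all genes. *ZIC1* had a mean of 44.4 ± 17.2 CPM with THC, against 28.1 ± 5.16 CPM with DMSO (log2 fold change 0.59, interval -0.37 to 1.54), and *OTX2* one of 116 ± 26.5 CPM with THC against 85.1 ± 7.74 CPM with DMSO (0.43, -0.16 to 1.03). The tested members below 0 were *SIX3* entry 58008 (-0.34) and *PAX6* entry 103379 (-1.21, interval -5.03 to 2.61). *EGR2*, not tested, had means of 0.843 ± 1.61 CPM with THC, 9.84 ± 19.3 CPM with CBD and 6.36 ± 12.7 CPM with DMSO, each mostly from 1 library. *PAX2* entry 32578, also not tested, had means of 0.0151, 0.406 and 0.45 CPM. Without DMSO library 4 the DMSO means of *EGR2* and *PAX2* entry 32578 were 8.47 ± 14.6 and 0.6 ± 1.04 CPM (n = 3). Single libraries decided the size of the medians of the tested members. For THC the median was 0.02 without THC library 4 and 0.63 without DMSO library 1; for CBD it was 0.11 without DMSO library 2 and 0.61 without CBD library 3. With neither DMSO library 4 nor CBD library 3 in the fit, 12 identifiers could be tested, of which 9 were above 0 with THC (median 0.27) and 12 with CBD (median 0.57).

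At 96 hpf the spread between libraries was far smaller. The highest of the 12 libraries was a DMSO library for each of the 13 identifiers, DMSO library 1 for 7 and DMSO library 2 for 4. The share of all genes with a DMSO library highest was not computed. Small falls at 96 hpf were known when the genes were grouped, so this count is not independent evidence of a difference. The common biological coefficient of variation that edgeR estimated was 0.195 for larvae, against 0.476 for embryos. *rx3* stood at 6.74, 5.98, 6.09 and 6.13 CPM with THC, at 7.79, 8.31, 6.57 and 7.59 CPM with CBD, and at 9.12, 8.41, 8.17 and 7.55 CPM with DMSO. All 4 THC libraries were below all 4 DMSO libraries, and the CBD libraries overlapped both. *SIX3* entry 54879, a gene that in the larva is used in retina and forebrain, stood at 30.9, 30.8, 31.0 and 28.7 CPM with THC, 38.8, 33.5, 34.8 and 31.5 CPM with CBD, and 44.5, 37.6, 36.9 and 32.8 CPM with DMSO. *SIX3* entry 58008 stood at 22.0, 25.0, 23 and 22.4 CPM with THC, 30.3, 26.6, 26.1 and 24.3 CPM with CBD, and 31.7, 29.3, 26.1 and 25.0 CPM with DMSO. In both *SIX3* identifiers the highest THC library was below the lowest DMSO library, for entry 58008 by less than the rounding shown, and the CBD and DMSO libraries overlapped.

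**Figure D3:**
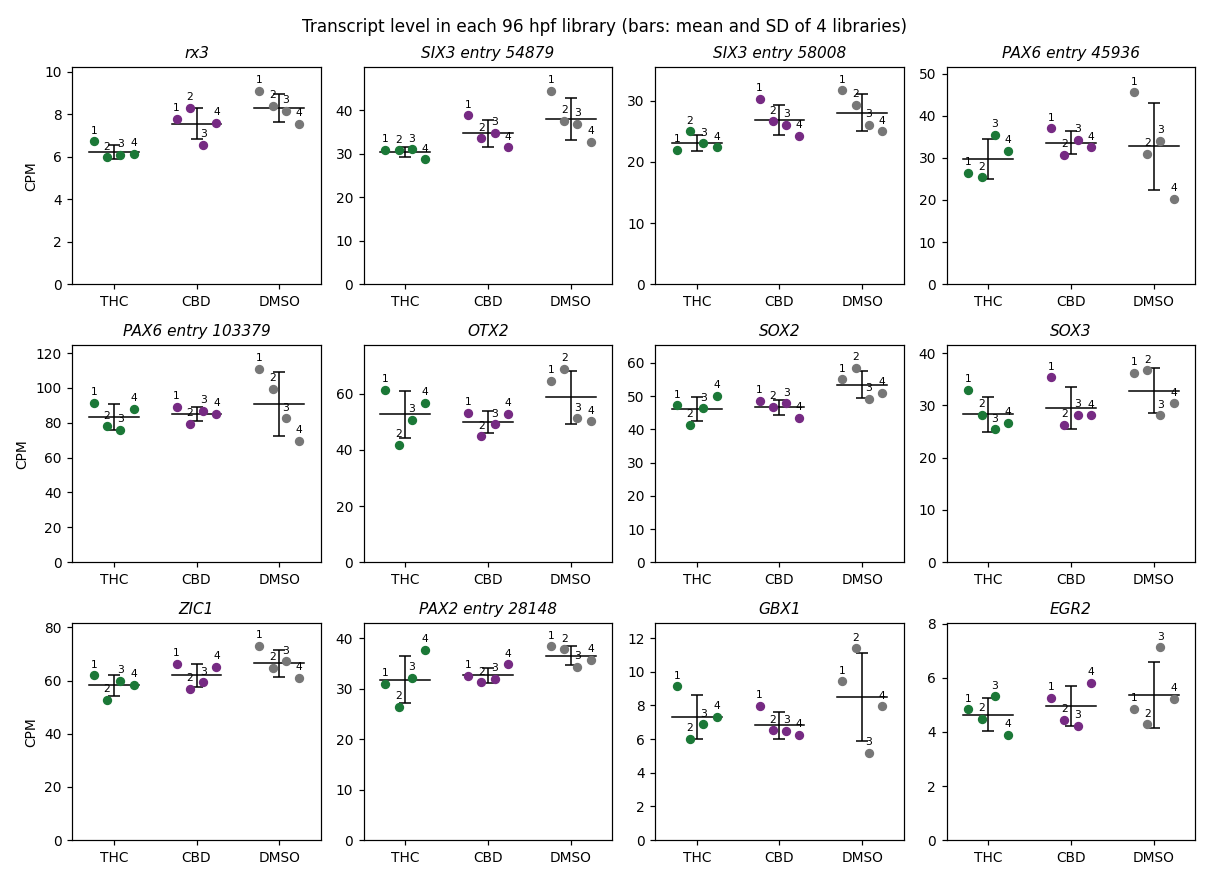
Level (CPM, linear axis) of 12 of the 13 identifiers in each 96 hpf library, for THC, CBD and DMSO from left to right; each point is a library with its number, and the black lines give the mean and SD of 4 libraries. *rx3* lies at 5.98 to 6.74 CPM with THC, 6.57 to 8.31 CPM with CBD and 7.55 to 9.12 CPM with DMSO.

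Among the SoxB1 genes and *OTX2* at 96 hpf, *SOX2* stood at 47.2, 41.4, 46.3 and 50.1 CPM with THC, 48.6, 46.8, 47.9 and 43.4 CPM with CBD, and 55.1, 58.5, 49.3 and 51.1 CPM with DMSO. The 4 CBD libraries were all below the 4 DMSO libraries, and THC library 4 overlapped them. *SOX3* stood at 33.0, 28.2, 25.4 and 26.7 CPM with THC, 35.4, 26.3, 28.2 and 28.1 CPM with CBD, and 36.2, 36.7, 28.1 and 30.4 CPM with DMSO. *OTX2* stood at 61.5, 41.9, 50.8 and 56.7 CPM with THC, 53.3, 44.9, 49.2 and 52.8 CPM with CBD, and 64.6, 68.9, 51.3 and 50.2 CPM with DMSO. For *SOX3* and *OTX2* the 3 groups overlapped, and DMSO libraries 1 and 2 were the highest of the DMSO group. *ZIC1* ranged over 52.8 to 62.0 CPM with THC, 56.9 to 66.2 CPM with CBD and 61.1 to 73.1 CPM with DMSO.

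The remaining identifiers overlapped between groups at 96 hpf. *PAX2* entry 28148, a gene of optic nerve, kidney and hindbrain neurons at later stages, ranged over 26.4 to 37.7 CPM with THC, 31.3 to 34.8 CPM with CBD and 34.3 to 38.4 CPM with DMSO. *PAX6* entry 103379 ranged over 76.0 to 91.3 CPM with THC, 79.3 to 89.1 CPM with CBD and 69.5 to 111 CPM with DMSO, and *PAX6* entry 45936 over 25.4 to 35.4 CPM with THC, 30.7 to 37.0 CPM with CBD and 20.3 to 45.5 CPM with DMSO. In both, DMSO library 1 was the highest of the 12 libraries and DMSO library 4 the lowest. *GBX1* ranged over 6.02 to 9.13 CPM with THC, 6.25 to 7.99 CPM with CBD and 5.20 to 11.4 CPM with DMSO, and *EGR2* over 3.88 to 5.32 CPM with THC, 4.23 to 5.82 CPM with CBD and 4.28 to 7.12 CPM with DMSO. *PAX2* entry 32578 had 2 to 25 counts in the 12 libraries and was not tested.

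No member passed the test between treatments at 96 hpf. In THC against DMSO 0 of 12 members passed (edgeR quasi-likelihood test, Benjamini-Hochberg over 21409 genes), where 0.0514% of all genes did, all of them higher with THC; DESeq2's Wald test also called 0 members. All 12 tested members had a log2 fold change below 0, where 47.2% of all genes did, and their median was -0.19, against 0.01 over all genes. An unadjusted p under 0.05 was found for 3 of 12 members and for 3.75% of all genes (802), and the same 3 had THC libraries that lay wholly below the DMSO libraries, which held for 0.743% of all genes. Since small falls at 96 hpf were known when the genes were grouped, these counts describe the members and are not independent evidence of a difference. *rx3* had a mean of 6.23 ± 0.342 CPM with THC, against 8.31 ± 0.649 CPM with DMSO (SD, n = 4 each), a log2 fold change of -0.39 (SE 0.125, interval -0.66 to -0.13) with an adjusted p of 0.918 (edgeR). *SIX3* entry 54879 had a mean of 30.3 ± 1.09 CPM with THC, against 37.9 ± 4.83 CPM with DMSO (-0.30, interval -0.53 to -0.08), and *SIX3* entry 58008 one of 23.1 ± 1.34 CPM with THC, against 28.0 ± 3.03 CPM with DMSO (-0.25, interval -0.48 to -0.03), both with an adjusted p of 1 (edgeR). The other 9 log2 fold changes lay between -0.19 and -0.10, each with an interval that includes 0.

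In CBD against DMSO at 96 hpf 0 of 12 members passed, where 0% of all genes did; 0 had an unadjusted p under 0.05, where 1.92% of all genes (410) did, and DESeq2's Wald test called 0 members and 0 genes. Of the 12, 11 had a log2 fold change below 0, where 46.8% of all genes did, with a median of -0.11 against 0.01 over all genes. *SOX2*, at 46.7 ± 2.31 CPM with CBD, against 53.5 ± 4.11 CPM with DMSO (SD, n = 4 each), had a log2 fold change of -0.17 (SE 0.0911, interval -0.37 to 0.02, adjusted p = 1 with edgeR). It was the 1 member of 12 whose CBD libraries lay wholly below the DMSO libraries, which held for 0.771% of all genes. *GBX1* had the lowest value (-0.29, interval -0.72 to 0.15), followed by *OTX2* (-0.21, -0.49 to 0.08), and *PAX6* entry 45936 was the member above 0 (0.06, -0.35 to 0.47). THC and CBD were set against the same 4 DMSO libraries, so that the directions in the 2 comparisons are not independent of each other.

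**Figure D4:**
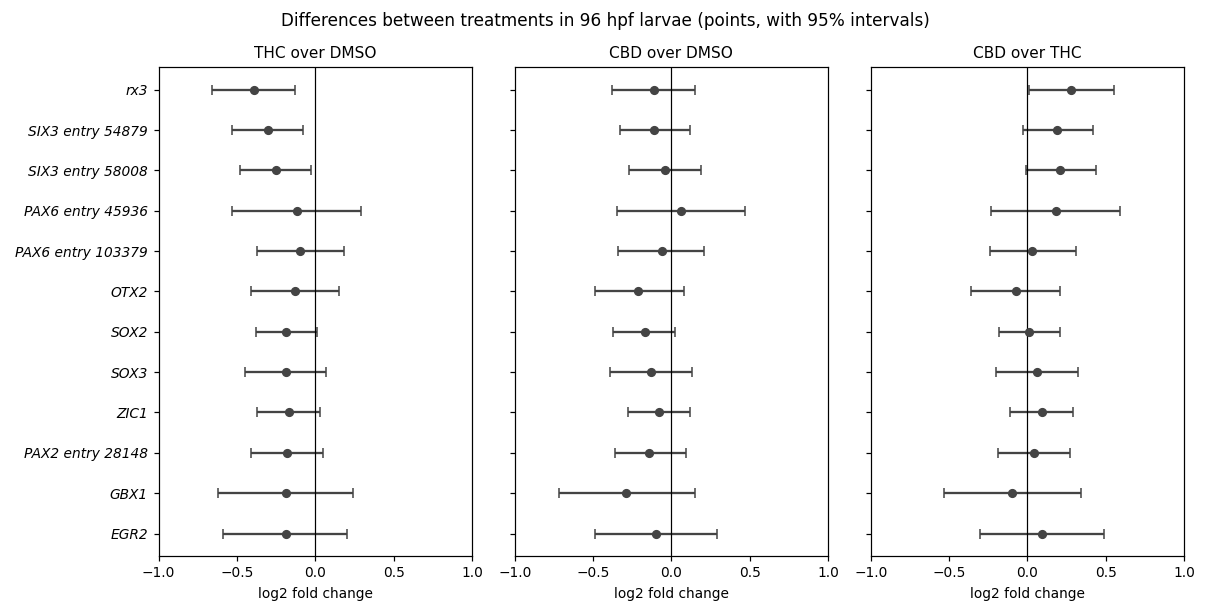
Log2 fold change of each tested member in 96 hpf larvae for THC over DMSO, CBD over DMSO and CBD over THC; points are estimates and bars their 95% intervals. All 12 points are below 0 for THC over DMSO and 11 of 12 for CBD over DMSO, and the intervals of *rx3* and both *SIX3* entries exclude 0 only for THC over DMSO, and that of *rx3* also for CBD over THC; none passed after adjustment over all genes.

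The median difference of THC from DMSO at 96 hpf was larger with replicates 1 and 2 than with replicates 3 and 4. The 2 medians cover 12 and 13 identifiers, and whether the sets differ was not tested. The sets differed over all genes too. In THC against DMSO 312 genes passed with replicates 1 and 2 alone and 0 with replicates 3 and 4 alone. In CBD against DMSO these counts were 154 and 0. Medians and directions of all genes in each set are not reported here. Small falls at 96 hpf were known when the members were grouped. With the first 2 replicates of each group alone the median of the members was -0.34 in THC against DMSO, with 11 of 12 below 0, and with the other 2 alone it was -0.13, with 9 of 13 below 0; there *OTX2* (0.07), *PAX6* entry 45936 (0.28), *PAX6* entry 103379 (0.09) and *GBX1* (0.09) were above 0. *rx3* was at -0.44 and -0.38 in these 2 sets and *SIX3* entry 54879 at -0.38 and -0.24. For CBD the medians were -0.16 with replicates 1 and 2 and -0.09 with replicates 3 and 4. No labelled batch separates these replicates.

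The 2 compounds were also set against each other, for 12 members at 96 hpf and 11 at 10 hpf, although the labels used here state no doses. At 96 hpf 0 of 12 members passed in CBD against THC, where 0% of all genes did (edgeR), and DESeq2's Wald test called 0 members. *rx3* had a mean of 7.57 ± 0.73 CPM with CBD, against 6.23 ± 0.342 CPM with THC (SD, n = 4 each), a log2 difference of 0.28 (SE 0.125, interval 0.01 to 0.55) and the 1 member with an unadjusted p under 0.05, where 2.52% of all genes (540) had one; its adjusted p was 1 (edgeR). *SIX3* entry 54879 (0.19, interval -0.03 to 0.42) was the 1 member whose CBD libraries lay wholly above the THC libraries, which held for 1.3% of all genes, and *SIX3* entry 58008 had a similar value (0.21, interval -0.01 to 0.44). For *SOX2* the interval of the difference was -0.18 to 0.21, for *ZIC1* -0.11 to 0.29 and for *OTX2* -0.36 to 0.21, so that differences up to these sizes are not excluded. At 10 hpf 0 of 11 passed in CBD against THC, where 0% of all genes did, and 0 of 11 had an unadjusted p under 0.05, where 9.1% of all genes (1601) did. There 6 of 11 were above 0, where 53.4% of all genes were, with a median of 0.05 equal to that of all genes, and the intervals were wide, from -0.30 to 0.41 for *SOX3* up to -2.07 to 5.41 for *PAX6* entry 103379.

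The difference between the stages in the treatment values was fitted as an interaction, the log2 fold change over DMSO at 96 hpf minus that at 10 hpf. Since opposite directions at the 2 stages were known when the genes were grouped, the directions and medians here restate that choice, and no test of it on other libraries can be given. For CBD 0 of 12 members passed (edgeR over 22741 genes), where 0% of all genes did; 1 had an unadjusted p under 0.05, where 6.7% of all genes (1523) had one. That member was *OTX2*, with -0.80 (SE 0.315, interval -1.45 to -0.14, adjusted p = 0.715 with edgeR). Of the 12 differences, 11 were below 0, where 54.6% of all genes were, with a median of -0.46 against -0.07 over all genes. For THC 0 of 12 passed, where 0% of all genes did, and 0 had an unadjusted p under 0.05, where 2.37% of all genes (539) did; 9 of 12 were below 0, where 51.4% of all genes were, with a median of -0.42 against -0.01 over all genes. DESeq2's Wald test called 0 members in either.

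The differences between stages were larger. All 3 groups of larvae were compared with the embryos of the same treatment in 1 fit over 24 libraries. The scale between stages depends on the normalisation: the median log2 change of all genes was 0.36 with THC, 0.25 with CBD and 0.32 with DMSO after TMM scaling, and DESeq2's size factors raised these medians by 0.86, 0.83 and 0.82. With DESeq2's size factors the genes called higher and lower were 12937 and 5194 with THC, 12428 and 5154 with CBD and 12510 and 4986 with DMSO; after TMM scaling they were 10115 and 8059 with THC, 9638 and 8107 with CBD and 9717 and 7825 with DMSO. Changes are therefore also given relative to the median gene, a value that the choice of scaling moved by at most 0.04.

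*SOX3* and *GBX1* fell in all 3 treatments under both scalings. *SOX3* averaged 28.3 ± 3.31 CPM at 96 hpf and 174 ± 12.1 CPM at 10 hpf with THC, 29.5 ± 4.01 and 179 ± 32.1 CPM with CBD, and 32.8 ± 4.27 and 153 ± 18.3 CPM with DMSO (SD, n = 4 each). Its log2 changes were -2.62, -2.60 and -2.24, or -2.98, -2.85 and -2.56 relative to the median gene, with a largest adjusted p of 3.53e-11 (edgeR). *GBX1* changed by -2.99 with THC, -2.94 with CBD and -2.54 with DMSO, with a largest adjusted p of 4.54e-07 (edgeR). *rx3* fell with THC (-2.69) and CBD (-2.53) under both scalings. With DMSO its change was -1.61 (-1.93 relative to the median gene, adjusted p = 0.00458 with edgeR), and the call was lost with DESeq2's size factors (-0.80) and without DMSO library 1 of 10 hpf (-0.70, adjusted p = 0.16).

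*SOX2* and *OTX2* fell after TMM scaling in all 3 treatments, but with DESeq2's size factors only *OTX2* with CBD still passed (-0.49, adjusted p = 0.0404 with edgeR). Under that scaling *SOX2* was at -0.27 with THC, -0.13 with CBD and 0.08 with DMSO, and *OTX2* at -0.28 with THC and 0.29 with DMSO. Relative to the median gene, *SOX2* was at -1.49 with THC, -1.23 with CBD and -1.05 with DMSO, and *OTX2* at -1.50, -1.57 and -0.84. The call of *OTX2* with DMSO (log2 change -0.52, adjusted p = 0.0396 with edgeR) was lost when any 1 of the 4 DMSO libraries of 10 hpf or DMSO libraries 2, 3 or 4 of 96 hpf was left out, with values of -0.51 to -0.29.

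*SIX3* entry 58008 and *PAX6* entry 103379 were higher in larvae. *SIX3* entry 58008 averaged 23.1 ± 1.34 CPM at 96 hpf and 3.25 ± 0.833 CPM at 10 hpf with THC, 26.8 ± 2.53 and 4.77 ± 4.81 CPM with CBD, and 28.0 ± 3.03 and 3.22 ± 3.07 CPM with DMSO (SD, n = 4 each). Without the shallow DMSO library 4, which had 0 counts, the DMSO mean at 10 hpf was 4.29 ± 2.7 CPM (n = 3). *SIX3* entry 58008 rose by 2.83, 2.46 and 2.73 log2 units, with a largest adjusted p of 2.56e-05 (edgeR). *PAX6* entry 103379 rose by 4.26 with THC and 3.12 with DMSO and passed with an adjusted p of 0.00653 and 0.0427 (edgeR); with CBD the value was 2.63 (adjusted p = 0.0592). Each of these depended on the 1 embryo library or 2 that already held the transcript: without THC library 4 the change was 8.15, without DMSO library 1 it was 8.11, and without CBD library 1 it was 4.50 and passed (adjusted p = 0.00554). Without DMSO library 2, 3 or 4 of 10 hpf, or library 1, 2 or 3 of 96 hpf, the DMSO call was lost, with values of 2.69 to 3.18.

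**Figure D5:**
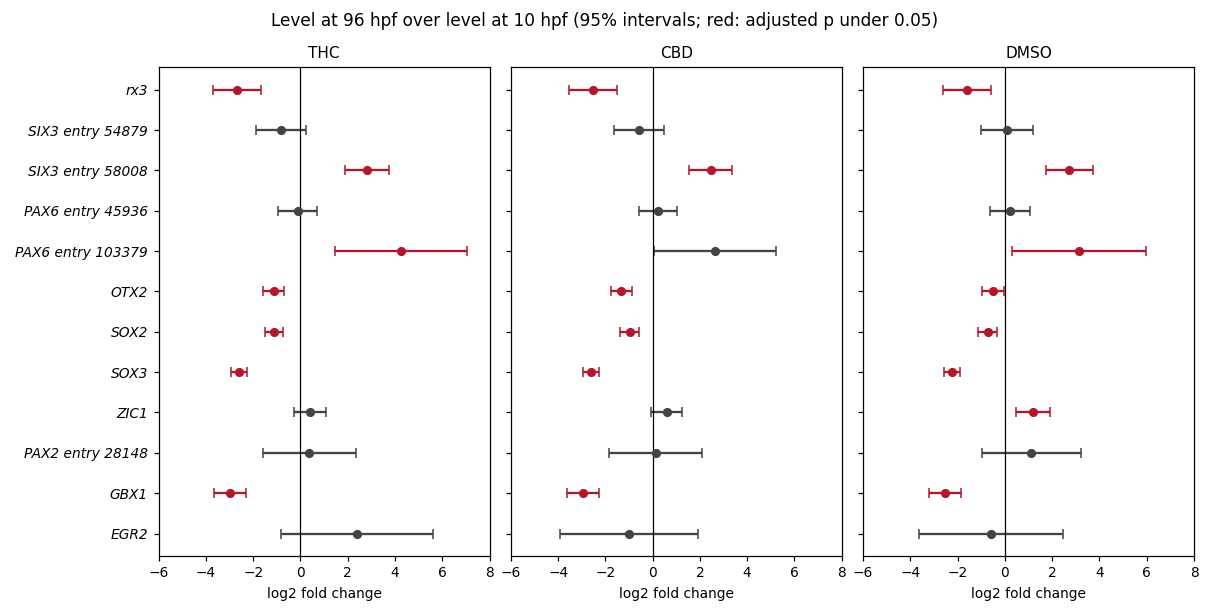
Log2 fold change of each tested member at 96 hpf over 10 hpf, with 95% intervals, for THC, CBD and DMSO; red points passed the adjusted threshold after TMM scaling. *SOX3* and *GBX1* lie between -2.99 and -2.24 over the 3 panels and *SIX3* entry 58008 above 0, while the intervals of *EGR2*, *PAX2* entry 28148 and *PAX6* entry 103379 are the widest.

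The other 5 identifiers tested between stages were mixed. *ZIC1* rose with DMSO (1.18, adjusted p = 0.00372 with edgeR) and had values of 0.39 with THC and 0.59 with CBD, which passed only with DESeq2's size factors (1.25 and 1.45) or, for CBD, without CBD library 2 (1.15). *SIX3* entry 54879 and *PAX6* entry 45936 did not pass after TMM scaling in any treatment, and with DESeq2's size factors *PAX6* entry 45936 passed with CBD (1.08) and DMSO (1.01). *PAX2* entry 28148 and *EGR2* did not pass either with all libraries. For both, single embryo libraries decided this. *PAX2* entry 28148 was at 4.01 (adjusted p = 0.00469 with edgeR) without DMSO library 1 of 10 hpf and at 2.55 (adjusted p = 0.0183 with edgeR) without THC library 4 of 10 hpf. *EGR2* passed as higher in larvae without DMSO library 1 of 10 hpf (adjusted p = 0.0186 with edgeR), without THC library 4 (adjusted p = 0.0127) and without CBD library 1 (adjusted p = 0.0149); the embryo libraries left in each group held 1 or 0, 1 or 0, and 9 or 0 counts, so the size of a fold there depends on the prior count. In all, 2 members were called higher and 5 lower with THC, where 44.5% of all genes were called higher and 35.4% lower. With CBD it was 1 higher and 5 lower, where 42.4% and 35.6% of all genes were, and with DMSO 3 higher and 5 lower, where 42.7% and 34.4% were. With DESeq2's size factors the members called higher and lower were 3 and 3 with THC, 4 and 4 with CBD and 4 and 2 with DMSO.

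Other genes of the early nervous system, in 6 lists, were set beside the members: the neural plate and SoxB genes, the eye field and optic vesicle, the forebrain and midbrain, the midbrain-hindbrain boundary, the hindbrain and early neurons, with 91 identifiers together. Names were matched in any case, and *dld* of the early neuron list matched the symbol *DLD*. Whether that identifier is the neural gene was not checked, and it stays in the counts of these lists. No gene of these lists passed in a treatment comparison at either stage. Of all genes, 0.0514% passed in THC against DMSO at 96 hpf and 0% in the other treatment comparisons. In THC against DMSO at 96 hpf 66 of 86 tested genes had a log2 fold change below 0 (median -0.09), and in CBD against DMSO 70 of 86 (median -0.10). Of all genes, 47.2% were below 0 with THC and 46.8% with CBD. These shares also stand beside the counts of single lists that follow. By list, 17 of 19 neural plate and SoxB genes and 13 of 16 eye field and optic vesicle genes were below 0 with THC, and 15 of 19 and 12 of 16 with CBD; all 13 forebrain and midbrain genes were below 0 with CBD and 10 of 13 with THC. The neural plate and SoxB list summed to 637, 593, 498 and 414 CPM in DMSO libraries 1 to 4. It summed to 458 to 519 CPM with THC and 457 to 551 CPM with CBD. The eye field, forebrain and early neuron sums were also highest in DMSO libraries 1 and 2. In these lists DMSO libraries 3 and 4 were below the highest THC library. The boundary (90.2, 88.2, 91 and 83 CPM) and hindbrain sums (323, 346, 314 and 324 CPM) in DMSO did not follow this. Lists of other tissues were also below 0, among them 12 of 12 genes of non-neural ectoderm and epidermis with THC (median -0.13) and 11 of 11 skeletal muscle genes with CBD (median -0.24). The summed level of the 11 muscle genes was 30200 to 43200 CPM with THC, 32200 to 45500 CPM with CBD and 33200 to 47700 CPM with DMSO. That of the 12 epidermal genes was 12000 to 14400 CPM with THC, 12300 to 16200 CPM with CBD and 12900 to 18500 CPM with DMSO. The part of these lists in the members' values was not tested. Genes of mature neurons were spread about 0, with 8 of 13 below 0 with THC (median 0) and 4 of 13 with CBD (median 0.08).

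At 10 hpf 61 of the 73 tested genes of the 6 lists were above 0 in CBD against DMSO (median 0.36). In THC against DMSO 37 of 73 were above 0 (median 0.03). Of all genes, 55% were above 0 with CBD and 52.7% with THC, so the count with THC was near that share. Non-neural ectoderm genes were above 0 as often, in 11 of 12 (median 0.45) with CBD. The summed level of the hindbrain list was 758 CPM in THC library 4, 764 and 760 CPM in CBD libraries 1 and 2 and 666 CPM in DMSO library 1, against 245 to 419 CPM in the other 8 libraries; these are the same 4 libraries in which *PAX2* entry 28148 and *PAX6* entry 103379 were high.

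Between stages the other neural lists held genes of both directions. With DMSO and TMM scaling, 12 of 16 tested eye field and optic vesicle genes passed as higher in larvae and 2 as lower, and of 19 neural plate and SoxB genes 5 passed as higher and 10 as lower, where 42.7% of all genes passed as higher and 34.4% as lower. With DESeq2's size factors the counts were 13 higher and 1 lower of 16, and 7 higher and 7 lower of 19, where 55% and 21.9% of all genes passed. The following genes are examples chosen after their values were seen. *sox19a*, a SoxB1 gene of the early embryo, fell by 3.29 log2 units to 41.9 CPM at 96 hpf, against 411 CPM at 10 hpf. *otx2a*, the other *OTX2*-type gene of the files, fell by 4.26 to 5.42 CPM, against 102 CPM. *rx1*, a retinal homeobox gene of the same family as *rx3*, rose by 4.35 to 28.6 CPM, against 1.03 CPM. All 13 tested genes of mature neurons and all 15 of mature retina and lens passed as higher in larvae under both scalings. Of 14 gastrula mesoderm and endoderm genes all passed as lower after TMM scaling and 13 with DESeq2's size factors. These lists were picked as markers of embryonic or larval tissues, so the counts do not test the stage of single libraries.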

How the data were processed

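Raw counts per gene were deposited by the authors, 1 file per library and 35117 gene identifiers each, with no normalization and 0 lines that name no gene. Per the labels' protocols, RNA was taken with RNeasy columns and DNase, made into TruSeq libraries and sequenced as paired reads on a HiSeq. Per the submitters' processing notes, STAR, HTSeq, edgeR and the build GRCz11 were used; the notes used here name no versions. Counts of near-identical gene copies and of overlapping genes are less certain, since the counting can split or drop shared reads. Gene names came from a table that gives a symbol to 27000 of the identifiers; sequences and coordinates were not used here.

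Each stage was fitted over its 12 libraries, and the change between stages and its difference between treatments over all 24, in R 4.3.3 with edgeR 4.0.16 (TMM scaling, filterByExpr with a minimum count of 10 and a minimum total of 15, quasi-likelihood F test, Benjamini-Hochberg threshold 0.05). The SE is the log2 fold change divided by the square root of F, and intervals are 95%. A level is CPM computed from the deposited counts, over library totals multiplied by the TMM factors of the fit over all 24 libraries. The floor of 3 counts covers counting error only. The simulated tables used to test the code had 200 genes changed by known folds. In THC against DMSO at 10 hpf, 1.15% of simulated log2 changes of 1 and 26.5% of those of 2 were recovered. At 96 hpf the shares were 57.8% and 90.9%. A count of 0 at 10 hpf therefore does not exclude changes of these sizes.

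Alternatives were DESeq2's size factors in the same fit, DESeq2 1.42.0's Wald test, no filter, at least 1 CPM in 4 libraries, a replicate block, each library left out, the 8 libraries of 2 groups alone, replicates 1 and 2 or 3 and 4 alone at 96 hpf, and no DMSO library 4 or CBD library 3 at 10 hpf. DMSO library 4 of 10 hpf stayed in all other fits. No 2 libraries of a group agreed within sampling noise: where a gene's counts in a pair came to 20 or more, the smallest chi-square per degree of freedom was 2.53. The plan was to name all 10 members in every comparison, but for several comparisons the fitted values of only some members are given here. Genes of other lists were to be named only where they passed the test, and *nanog*, *MYOG*, *smyhc1* and *tbxta* per library. Genes most like a member were the 3 with the highest Pearson r of log2 CPM (prior count 2) over the 10 hpf libraries above 1000000 counts. For 1 member the third such gene is not reported here. The members and lists were chosen with earlier results of these data known.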

Additional observations from a re-analysis of the deposited data

Results flagged for a closer look

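In 15 of the 78 groups of 4 libraries that were examined, 1 library stood apart from the other 3 by Dixon's ratio (the gap to the nearest library divided by the range of the group), at its 95% critical value. Chance gives about 1 such group in 20 where groups are independent and their values normally distributed. Here the same libraries recur across identifiers that follow each other, and some groups hold 0 in 3 libraries. The count of 15 therefore cannot be set against that rate. At 10 hpf 12 of the 15 were found, all on the high side.

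DMSO library 1 of 10 hpf stood above its group in *PAX2* entry 28148 (ratio 0.943, 48.7 CPM), *PAX2* entry 32578 (1, 36 counts), *PAX6* entry 45936 (0.845, 46.3 CPM), *PAX6* entry 103379 (0.989, 31.5 CPM) and *EGR2* (0.998, 25.4 CPM). THC library 4 of 10 hpf stood above its group in *PAX2* entry 28148 (0.911, 81.1 CPM), *PAX6* entry 103379 (0.98, 16.2 CPM) and *EGR2* (0.981, 3.26 CPM). CBD library 1 of 10 hpf stood above its group in *SIX3* entry 58008 (0.85, 11.9 CPM), *PAX2* entry 32578 (1, 35 counts) and *EGR2* (0.986, 38.8 CPM). The last of the 12 was *PAX2* entry 32578 in THC library 3 (ratio 1), which rests on 1 count against 0 in the other 3 libraries.

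At 96 hpf *SIX3* entry 54879 was lower in THC library 4 (28.7 CPM) than in the other THC libraries (30.8 to 31.0 CPM), with a ratio of 0.935. *GBX1* was higher in CBD library 1 (7.99 CPM) than in the other CBD libraries (6.25 to 6.52 CPM), with a ratio of 0.848. *PAX2* entry 32578 was highest in DMSO library 4 (25 counts, 1.03 CPM; ratio 0.946).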

How the results depend on the processing

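No alternative changed the count of members called between treatments, which stayed at 0 in all fits, and the counts of members called between stages stayed within 1.5 times. Among single members' values, 813 kept direction and side of the threshold under the alternatives other than leaving out 1 library, 38 changed sign, 14 lost the call and 11 gained it; with 1 library left out the numbers were 1122, 83, 14 and 5. The cause of these changes was not tested. Some alternatives also bring smaller numbers of libraries or genes. Between stages, DESeq2's size factors raised the median of all genes by 0.86 with THC, 0.83 with CBD and 0.82 with DMSO. Members' values relative to that median moved by at most 0.04. Depth limits DMSO library 4 of 10 hpf, where 3 counts are 22.2 CPM, and levels near the floor (*PAX6* entry 103379, *PAX2* entry 32578 and *EGR2* at 10 hpf); fitted values of *EGR2* over embryo libraries at or near 0 counts, the ranges given here included, depend on the prior count and bound no fold. Doses and clutches are not given, and the levels of stage genes such as *nanog* differ between 10 hpf libraries of the same group.

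The count of all genes called in THC against DMSO at 96 hpf was 11, and became 18 with no filter, 54 with DESeq2's Wald test, 1 with the replicate block, 1 with the 8 libraries of the 2 groups alone, 312 with replicates 1 and 2 alone and 0 with replicates 3 and 4 alone. With 1 library left out it was 1 to 31: 1 without DMSO library 1, 2 or 4 or THC library 1, 2 without THC library 2 or 3, and 31 without DMSO library 3. In CBD against DMSO at 96 hpf it was 0, and 154 with replicates 1 and 2 alone. In CBD against THC at 96 hpf it was 0, and became 1 with no filter, 14 with DESeq2's Wald test, 3 with 8 libraries and 27 with replicates 1 and 2 alone, and 0 to 1 with 1 library left out (1 without THC library 3). At 10 hpf, with 1 library left out, it was 0 to 4 in CBD against DMSO and 0 to 14 in CBD against THC, each time highest without CBD library 1, and for the stage difference of the CBD effect 0 to 4. For the stage difference of the THC effect it was 0, and 1 without DMSO library 4 and CBD library 3.

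Libraries of different groups with the same replicate number deviated together only in part: the correlation of their deviations from the group means was -0.55 to 0.65 at 10 hpf (over 0.1 in 4 of 12 pairs) and -0.25 to 0.40 at 96 hpf (over 0.1 in 7 of 12), and 2 and 6 of the 12 libraries correlated best with their own number. The labels do not say that the numbers pair libraries, so the block is given here alone; with it 0 members were called between treatments.

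Single members changed sign as follows, with the log2 fold change under the alternative in parentheses. With DESeq2's size factors the sign turned in CBD against DMSO at 10 hpf for *PAX6* entry 45936 (-0.01), in 96 against 10 hpf with DMSO for *SOX2* (0.08), *OTX2* (0.29) and *EGR2* (0.20), in 96 against 10 hpf with THC for *SIX3* entry 54879 (0.03) and *PAX6* entry 45936 (0.75) and in 96 against 10 hpf with CBD for *SIX3* entry 54879 (0.27). With DESeq2's Wald test the sign turned in 96 against 10 hpf with DMSO for *SOX2* (0.08), *OTX2* (0.29) and *EGR2* (0.46), in 96 against 10 hpf with THC for *SIX3* entry 54879 (0.03) and *PAX6* entry 45936 (0.75) and in 96 against 10 hpf with CBD for *SIX3* entry 54879 (0.27). With the replicate block the sign turned in CBD against DMSO at 10 hpf for *SOX2* (-0.01), *PAX6* entry 45936 (-0.16) and *GBX1* (-0.01), in 96 against 10 hpf with DMSO for *EGR2* (1.73), in 96 against 10 hpf with CBD for *EGR2* (1.13) and in the stage difference of the THC effect for *SIX3* entry 58008 (-0.08). With at least 1 CPM in 4 libraries the sign turned in the stage difference of the CBD effect for *PAX6* entry 45936 (-0.01). With replicates 1 and 2 of each group alone the sign turned in THC against DMSO at 96 hpf for *EGR2* (0.05) and in CBD against DMSO at 96 hpf for *PAX6* entry 45936 (-0.13) and *EGR2* (0.14). With replicates 3 and 4 of each group alone the sign turned in THC against DMSO at 96 hpf for *OTX2* (0.07), *PAX6* entry 45936 (0.28), *PAX6* entry 103379 (0.09) and *GBX1* (0.09), in CBD against DMSO at 96 hpf for *PAX6* entry 103379 (0.14) and in CBD against THC at 96 hpf for *SOX2* (-0.09), *PAX2* entry 28148 (-0.08) and *PAX6* entry 45936 (-0.02). With neither DMSO library 4 nor CBD library 3 of 10 hpf in the fit the sign turned in CBD against THC at 10 hpf for *SOX2* (0.09), *SIX3* entry 54879 (0.27), *PAX6* entry 45936 (0.18) and *ZIC1* (0.18), in 96 against 10 hpf with CBD for *PAX2* entry 28148 (-0.15) and *PAX6* entry 45936 (-0.02) and in the stage difference of the CBD effect for *PAX6* entry 45936 (-0.27). DESeq2's Wald test gave no adjusted p for *PAX6* entry 103379 between stages with THC and DMSO.

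With 1 library left out, the sign of some members turned in at least 1 fit, and the range of log2 fold changes over these fits is given in parentheses. In THC against DMSO at 10 hpf these were *GBX1* (-0.06 to 0.38), *PAX2* entry 28148 (-1.55 to 3.43), *PAX6* entry 103379 (-5.02 to 3.71), *PAX6* entry 45936 (-0.02 to 0.63), *SIX3* entry 54879 (-0.07 to 1.29) and *SIX3* entry 58008 (-0.53 to 0.31). In CBD against DMSO at 10 hpf these were *GBX1* (-0.19 to 0.33), *PAX6* entry 103379 (-1.46 to 5.38), *PAX6* entry 45936 (-0.36 to 0.46), *SIX3* entry 54879 (-0.19 to 1.24), *SIX3* entry 58008 (-0.79 to 0.89), *SOX2* (-0.11 to 0.25) and *ZIC1* (-0.05 to 0.74). In CBD against THC at 10 hpf these were *GBX1* (-0.37 to 0.13), *OTX2* (-0.08 to 0.33), *PAX2* entry 28148 (-0.27 to 2.42), *PAX6* entry 103379 (-0.23 to 5.48), *PAX6* entry 45936 (-0.52 to 0.18), *rx3* (-0.42 to 0.78), *SIX3* entry 54879 (-0.72 to 0.57), *SIX3* entry 58008 (-0.43 to 0.87), *SOX2* (-0.26 to 0.09), *SOX3* (-0.05 to 0.12) and *ZIC1* (-0.63 to 0.18). In THC against DMSO at 96 hpf these were *PAX6* entry 45936 (-0.30 to 0.07). In CBD against DMSO at 96 hpf these were *EGR2* (-0.21 to 0.09), *PAX6* entry 103379 (-0.19 to 0.02), *PAX6* entry 45936 (-0.13 to 0.24) and *SIX3* entry 58008 (-0.11 to 0.01). In CBD against THC at 96 hpf these were *GBX1* (-0.19 to 0.01), *PAX2* entry 28148 (-0.05 to 0.14), *PAX6* entry 103379 (-0.02 to 0.07), *SOX2* (-0.05 to 0.06) and *SOX3* (-0.04 to 0.13). In 96 against 10 hpf with THC these were *PAX6* entry 45936 (-0.22 to 0.10). In 96 against 10 hpf with CBD these were *EGR2* (-1.35 to 4.58), *PAX2* entry 28148 (-0.18 to 0.80), *PAX6* entry 45936 (-0.02 to 0.58) and *SIX3* entry 54879 (-0.81 to 0.17). In 96 against 10 hpf with DMSO these were *EGR2* (-1.03 to 7.25) and *SIX3* entry 54879 (-0.12 to 0.87). In the stage difference of the THC effect these were *EGR2* (-4.86 to 7.33), *PAX2* entry 28148 (-3.63 to 1.36), *PAX6* entry 103379 (-3.85 to 4.97) and *SIX3* entry 58008 (-0.55 to 0.30). In the stage difference of the CBD effect these were *EGR2* (-8.26 to 5.19), *PAX6* entry 103379 (-5.48 to 1.39), *PAX6* entry 45936 (-0.44 to 0.38) and *SIX3* entry 58008 (-0.93 to 0.74).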
